A study of Mus musculus with 6 samples.

Results

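Testis levels of the beta-defensin genes Defb36 and Defb19 were examined in male mice given the BET bromodomain inhibitor JQ1. The pair was chosen because Defb36 lay far higher in JQ1-treated testes, so that the JQ1 against control values of both genes are given as a description, with no test. Every probe that the array annotation assigns to either gene was taken, which gave 3 of the 45281 probes, 2 for Defb36 and 1 for Defb19. JQ1 occupies the acetyl-lysine pocket of BET proteins, which include the testis-specific BRDT. The treated mice received JQ1 once a day at 50 mg/kg over 6 weeks, between 6 and 12 weeks of age, and the control mice received vehicle over the same period. Per the study's methods, both were given by intraperitoneal injection, and the vehicle was DMSO diluted in a cyclodextrin solution. All mice were of the mixed strain labelled C57/129. RNA of the whole testis was measured in 3 JQ1-treated mice and 2 control mice on 1-colour Illumina bead arrays. Control mouse 1 was measured on 2 arrays, whose values were averaged into 1 sample, and the 6 arrays are thus from 5 mice. With 2 control mice, the spread of the control group rests on a single difference.

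Beta-defensins are small, secreted, positively charged peptides whose conserved cysteines form disulphide bonds. Many kill microbes by disturbing their membranes, and several are made along the male tract, where they coat sperm and affect their motility and maturation. The genes lie in clusters that grew by duplication, and neighbours within a cluster are often used in different cell types. Defb19, first described in the mouse as a testis-specific defensin-like gene, has been assigned to Sertoli cells, the somatic cells that nurse developing germ cells within the seminiferous tubule. In a whole-testis sample, fewer cells of a type and less RNA per cell cannot be told apart, and this applies to every value given here.

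Both genes lie in the beta-defensin cluster of chromosome 2. In the RefSeq gene order of GRCm38.p6, Defb45 stands between Defb19 and Defb36, and Defb21 stands on the other side of Defb19. The RefSeq promoter table holds 10 entries for 9 of the 11 beta-defensin genes of this cluster. It has none for Defb19. The 250 bases before the start are shown for Defb36, the gene with the larger change, and for the flanking genes Defb45 and Defb21, which moved in opposite directions with JQ1. Each runs 5′ to 3′ on the gene's own strand, and capitals mark matches to the motifs named after them.
Defb36, chr2:152604077-152604326, plus strand: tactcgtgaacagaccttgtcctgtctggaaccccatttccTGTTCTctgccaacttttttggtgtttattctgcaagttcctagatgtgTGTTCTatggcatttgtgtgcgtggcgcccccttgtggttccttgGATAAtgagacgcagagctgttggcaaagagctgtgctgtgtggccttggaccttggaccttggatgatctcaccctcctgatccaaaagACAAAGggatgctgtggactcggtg
Defb45, chr2:152596486-152596735, minus strand: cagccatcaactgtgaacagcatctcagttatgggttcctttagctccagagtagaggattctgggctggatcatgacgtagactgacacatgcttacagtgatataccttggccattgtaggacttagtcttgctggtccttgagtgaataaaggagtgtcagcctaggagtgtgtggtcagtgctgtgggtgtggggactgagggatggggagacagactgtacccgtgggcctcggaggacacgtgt
Defb21, chr2:152572493-152572742, plus strand: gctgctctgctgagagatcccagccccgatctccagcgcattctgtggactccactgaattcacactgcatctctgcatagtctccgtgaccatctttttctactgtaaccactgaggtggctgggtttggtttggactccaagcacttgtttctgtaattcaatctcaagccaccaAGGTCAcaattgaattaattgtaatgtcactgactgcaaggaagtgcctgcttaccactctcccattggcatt
The 6 motifs were searched on both strands: AGAACA, the core of an androgen receptor element, ACAAAG for SOX proteins, GATAA for GATA factors, AGGTCA for steroidogenic factor 1, GGG and TTCC 3 bases apart for NF-kB and the TATA box TATAAA. The Defb36 window held the androgen receptor core 2 times, as TGTTCT on the printed strand, beginning 209 and 160 bases before the start. It also held GATAA at 115 and ACAAAG at 25 bases before the start. The Defb45 window held none of the 6 motifs, and the first Defb21 window held AGGTCA at 73 bases. The second Defb21 window, not printed, held GATAA at 29 bases. The Defb23 window also held the androgen receptor core 2 times, at 232 and 13 bases, with GATAA at 129 and TATAAA at 221. The Defb26 window held the androgen receptor core, ACAAAG and GATAA 1 time each. Probes of Defb23 and Defb26 were detected on no array, so these motifs were not particular to Defb36. Of all 32851 promoter windows, 16.1% held at least 1 androgen receptor core and 1.81% held 2 or more. The share was 16.5% for ACAAAG, 22.6% for GATAA, 14% for AGGTCA, 4.65% for the NF-kB motif and 12.4% for TATAAA. These are matches of letters and say nothing of binding.

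Across the arrays, between 17799 and 20326 probes were detected at a detection p-value under 0.05, which is the share of negative control probes as bright as the probe. A probe was kept where 2 or more of the 5 mice passed this limit, and 20901 probes of 11755 named genes remained. A gene with several kept probes is represented by its brightest. A gene was called at an adjusted p under 0.05 from limma, a linear model fitted to all kept probes, with a difference of at least 2-fold. By this rule 8.43% of genes were called higher and 2.84% lower with JQ1 (9.03% and 3.75% where any kept probe counts), and by the adjusted p alone 25% were higher and 21.6% lower. The testis label was checked against marker lists: all 10 spermatid genes were kept, whereas 1 of 10 epididymal genes with a probe was.

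Defb36 was about 4-fold higher and Defb19 a little over 2-fold higher in JQ1-treated testes, in each treated mouse. All 3 probes had a detection p of 0 on all 6 arrays, so that neither gene passed the filter through the JQ1 group alone. Levels are normalized signals on the log2 scale. A log2 fold change is the difference of the group means on that scale, and a fold is 2 to the power of that difference.

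The brighter of the Defb36 probes, ILMN_2926781, read 12.76, 12.89 and 12.93 in JQ1-treated mice 1, 2 and 3, against 10.93 and 11.08 in control mice 1 and 2. The JQ1-treated mice all lay above both control mice, and the lowest treated mouse stood 1.68 above the highest control. The group means were 12.86 ± 0.09 with JQ1 and 11.00 ± 0.11 in control mice (SD, n = 3 and 2), a log2 fold change of 1.86 (SE 0.12), or 3.63-fold. The treated mice spanned 0.17 and the control mice differed by 0.15.

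The dimmer Defb36 probe, ILMN_2702382, read 11.26, 11.49 and 11.52 in the JQ1-treated mice, against 9.20 and 9.26 in control mice. Again the groups did not overlap, with a gap of 2.00 between them. The means of 11.42 ± 0.14 with JQ1 and 9.23 ± 0.04 in control mice (SD, n = 3 and 2) gave a log2 fold change of 2.19 (SE 0.13), or 4.57-fold. The change was thus larger by 0.33 at the dimmer probe than at the brighter one. Without background correction the probes still differed in the same order, with log2 fold changes of 2.04 at the dimmer and 1.81 at the brighter probe.

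Defb19, measured by ILMN_2742279, read 13.53, 13.76 and 13.83 in the JQ1-treated mice, against 12.47 and 12.52 in control mice. All treated mice lay above both controls, by 1.02 at the narrowest. The means were 13.71 ± 0.16 with JQ1 and 12.49 ± 0.04 in control mice (SD, n = 3 and 2), a log2 fold change of 1.22 (SE 0.12), or 2.33-fold. A complete separation of this kind, with every JQ1-treated mouse above both control mice, occurred in 33.9% of all 11755 genes, and nothing is read from it for genes chosen by this contrast.

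**Figure D1:**
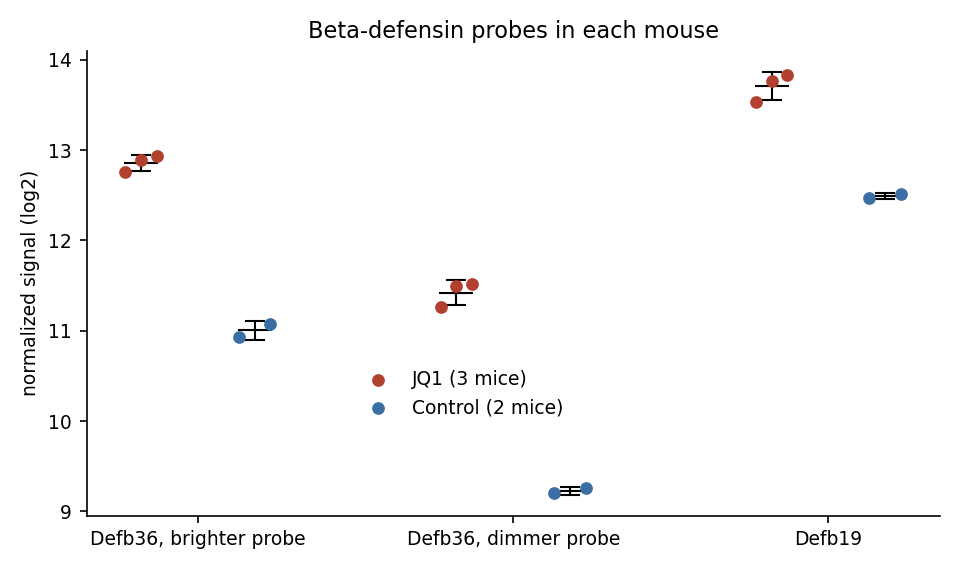
Normalized log2 signal (vertical axis) of the 3 beta-defensin probes in each mouse, JQ1-treated mice to the left of control mice for each probe, with the group mean and SD as black bars. The groups are separated at every probe, by 1.68 and 2.00 at the Defb36 probes and by 1.02 at Defb19, and levels of different probes are not comparable.

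JQ1-treated mouse 1 had the lowest level of the treated mice at all 3 probes, and mouse 3 the highest. Relative to the mean of the control mice, the brighter Defb36 probe stood 3.38-, 3.69- and 3.81-fold higher in JQ1-treated mice 1, 2 and 3. The dimmer probe stood 4.08-, 4.79- and 4.88-fold higher in these mice. Defb19 stood 2.06-, 2.41- and 2.53-fold higher. The order of the mice was therefore shared by both genes.

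The change of Defb36 exceeded that of Defb19 by 0.64 on the log2 scale at the brighter probe, which is 1.56-fold, and by 0.97 at the dimmer one, which is 1.96-fold. The SD within groups, pooled over both, was 0.10 and 0.12 at the brighter and dimmer Defb36 probes and 0.13 at Defb19. Of the 11755 genes, 49 had a larger change than the brighter Defb36 probe, 11 a larger one than the dimmer probe and 552 a larger one than Defb19.

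The difference was already present in the raw signal, before any correction. The brighter Defb36 probe had raw intensities of 5870.1, 6617.1 and 6870.3 in the JQ1-treated mice, against 2572.8 and 2427.5 for control mouse 1, which had a pair of arrays, and 1962.8 for control mouse 2. The dimmer probe had 2208.0, 2661.5 and 2674.0 with JQ1, against 789.4, 804.8 and 587.3 on the control arrays. Raw intensities of Defb19 were 10342.0, 12725.2 and 13481.4 with JQ1, against 7498.6, 7122.5 and 5543.3 on the control arrays. No array overlapped between groups for any of these probes, and the ratios of the raw group means were 2.89, 3.63 and 1.90 at the brighter, the dimmer and the Defb19 probe. These raw ratios were smaller than the normalized ones, and control mouse 1, whose first array had the highest median raw signal, lay above control mouse 2 before normalization at all 3 probes and below it afterwards. The brightest reading of Defb19 reached 38.9% of the highest signal on its array, that of Defb36 19.8%, so that none of the probes was at the ceiling of the scanner.

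The arrays of control mouse 1 gave a measure of technical error. They differed by 0.001 at the brighter Defb36 probe, by 0.16 at the dimmer one and by 0.01 at Defb19 on the log2 scale. At the dimmer probe this technical difference was larger than that between the control mice, which was 0.06. When the fit was run on the processed intensities in place of the raw ones, the log2 fold changes were 1.87 and 2.22 for the brighter and dimmer Defb36 probes and 1.22 for Defb19.

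The remaining beta-defensins did not share the change as a family. Of the 40 other Defb genes with a probe, 12 were kept, and of these 1 was called higher and 1 lower, beside 8.43% and 2.84% of all genes. Their median log2 fold change was -0.28, against 0.0004 over all genes. The other 28 genes were not kept: 24 were detected on none of the arrays and 4, which were Defb4, Defb43, Defb46 and Defb47, on 1 array each. Their raw signals lay between 73.4 and 159.1, near the background. Most of this family was thus at or below what the array could detect in either group, and no change can be given for it.

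Both called genes lay next to the chosen pair in the cluster. Defb45 read 10.73, 11.37 and 11.09 in JQ1-treated mice, against 9.70 and 9.74 in control mice. Every treated mouse lay above both controls, and Defb45 rose by 1.35 on the log2 scale (SE 0.16, 2.54-fold, adjusted p = 3.32e-06 from limma). Its change was close to that of Defb19. Defb21, on the other flank of Defb19, read 6.28, 6.03 and 6.10 in JQ1-treated mice, against 7.45 and 7.16 in control mice. All treated mice lay below both controls, and Defb21 fell by 1.17 on the log2 scale (SE 0.18, 2.25-fold lower, adjusted p = 5.95e-05 from limma). The probe was dim but detected in all 5 mice. Without background correction its log2 fold change was -0.64 (adjusted p = 4.97e-05 from limma), short of 2-fold.

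The other kept genes of the cluster, Defb20 and Defb28, had log2 fold changes of -0.36 and -0.14 (adjusted p = 0.139 and 0.613 from limma). Of the 11 beta-defensin genes of the locus, all had a probe and 6 were kept, the chosen pair included. The probes of Defb22, Defb23, Defb25, Defb26 and Defb29 were not kept. Along the chromosome, the genes that were higher with JQ1 were thus the adjacent run of Defb19, Defb45 and Defb36, with Defb21 lower at its edge.

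**Figure D2:**
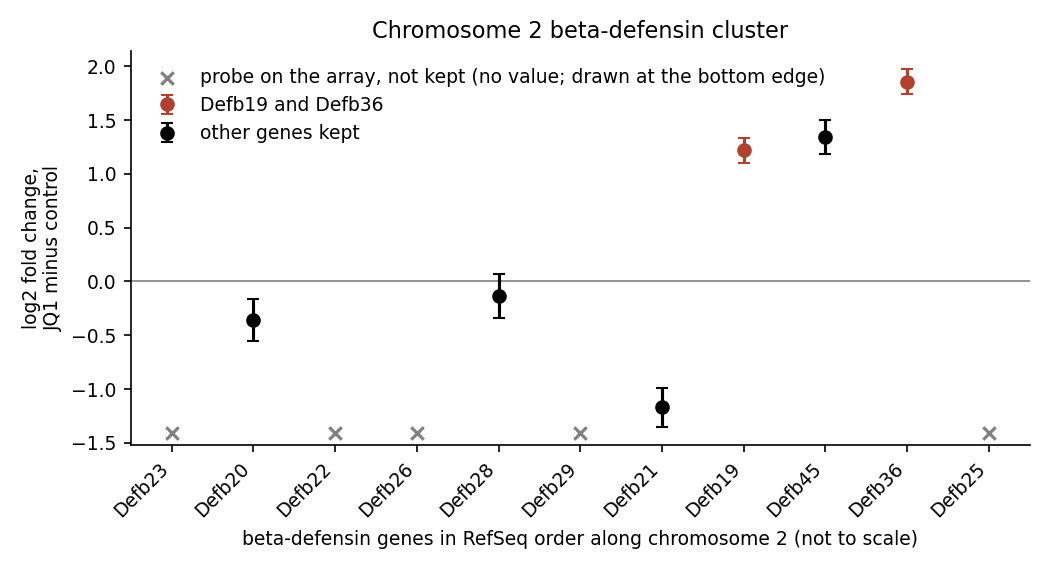
Log2 fold change, JQ1 minus control, with its SE (vertical axis) of the 11 beta-defensin genes of the chromosome 2 cluster in their RefSeq order (horizontal axis, not to scale), with Defb19 and Defb36 in red and genes without a kept probe as crosses at the bottom edge. Defb19, Defb45 and Defb36 stand side by side at 1.22, 1.35 and 1.86, next to Defb21 at -1.17.

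Outside chromosome 2, 8 of 31 Defb genes were kept and none was called, by the adjusted p alone or with the 2-fold limit, with fitted log2 fold changes between -0.39 and 0.13. Defb33, the brightest of them, read 11.14, 10.84 and 11.13 in JQ1-treated mice, against 11.30 and 11.32 in control mice. All treated mice lay below both controls by a small margin (log2 fold change -0.27, adjusted p = 0.0983 from limma). Defb14, the mouse counterpart of an inducible human epithelial beta-defensin, read 9.60, 10.01 and 9.34 in JQ1-treated mice, against 9.60 and 9.44 in control mice. Its groups overlapped (log2 fold change 0.13, adjusted p = 0.555 from limma). Defb11, Defb12 and Defb15 on chromosome 8, Defb30 on chromosome 14 and Defb41 on chromosome 1 lay between -0.39 and -0.27, with adjusted p between 0.11 and 0.319. Defb48 on chromosome 14 was detected in 2 JQ1-treated mice and in neither control mouse, so near the background that no fold is given. Over all 12 kept relatives, 5 had every JQ1-treated mouse below both controls and 1 had every one above, beside 32% and 33.9% of all genes.

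Of the alpha-defensins, host-defence peptides known from Paneth cells of the intestine, 3 of 8 genes were kept and none passed 2-fold. Defa3 rose by 0.80 on the log2 scale (adjusted p = 0.00439 from limma) and Defa20 lay at -0.25 (adjusted p = 0.325 from limma). The Defa3 probe was dim and detected in 1 of 2 control mice, and the other probes of this gene were not kept. Its log2 fold change was 0.32 without background correction. With the first array of control mouse 1 alone it was 0.58 (adjusted p = 0.0696 from limma).

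Genes of Sertoli cells were higher in the same mice. Of 16 kept genes of a Sertoli cell list, 12 were called higher and none lower, beside 8.43% and 2.84% of all genes. Among the called genes, Gata1 was detected in none of the control mice, and at its bound it was 1.62-fold higher, short of 2-fold. The list had a median log2 fold change of 1.29. The median was 1.32 with Gata1 at its bound and without Kitl, which control mice also lacked and whose fitted change was 0.33. Sox9, the transcription factor that sets Sertoli cell fate, rose by 1.70 (3.24-fold, adjusted p = 4.52e-08 from limma), and Rhox5, an androgen-regulated homeobox gene, by 1.32 (adjusted p = 7.54e-06 from limma). Drd4, Shbg and Cldn11, the last a tight junction protein of the blood-testis barrier, rose by 1.82, 1.57 and 1.47. Amh, a hormone of immature Sertoli cells, was detected on none of the arrays, and Wt1 was not analysed here. The log2 of the summed signal of the list ranged between 15.11 and 15.38 in JQ1-treated mice and between 13.79 and 13.93 in control mice. No gene of the list had a larger change than either Defb36 probe, and 11 of the 16 had a larger one than Defb19. Since Defb36 was chosen for its rise, nothing is read from this rank. Drd4 at 1.82 (SE 0.17) was also close to the brighter Defb36 probe at 1.86 (SE 0.12).

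The values were also set beside the mean of the Sertoli cell list mouse by mouse. The list mean stood 1.00, 1.23 and 1.25 above its control level in JQ1-treated mice 1, 2 and 3. Defb19 stood 0.04, 0.04 and 0.09 higher than that in the same mice, and therefore followed the list closely. The brighter Defb36 probe stood 0.76, 0.65 and 0.68 above the list, and the dimmer probe 1.03, 1.03 and 1.04. Averaged over the treated mice, Defb36 exceeded the mean change of the list, 1.16, by 0.70 at the brighter probe and by 1.03 at the dimmer one, which is 1.62-fold and 2.04-fold. Defb19 exceeded it by 0.06, or 1.04-fold. Defb36 was chosen for its rise, so nothing is read from its place above the list. The part of the Sertoli cell list in the change of either gene was not tested.

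**Figure D3:**
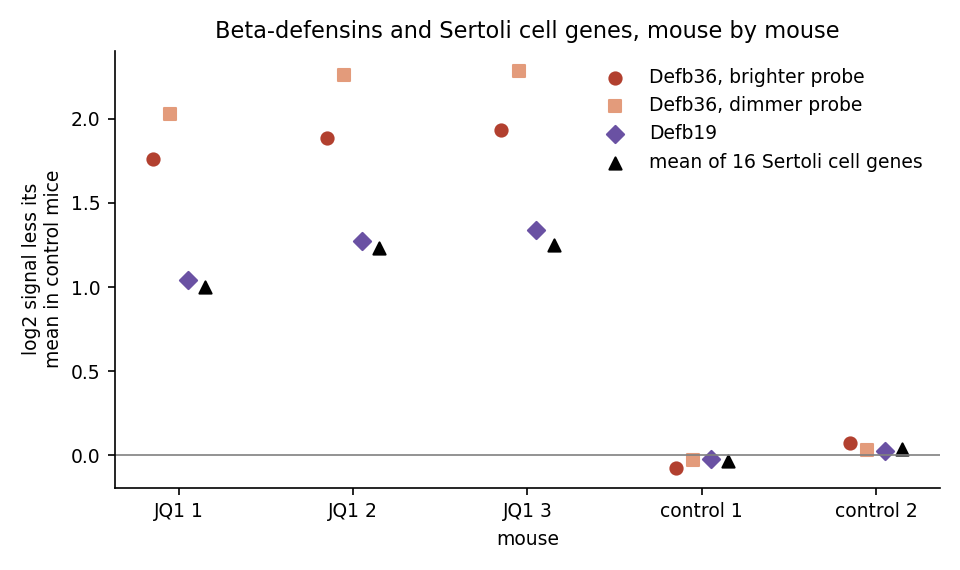
Log2 signal less its mean in the control mice (vertical axis) for the 3 beta-defensin probes and for the mean of 16 Sertoli cell genes, in each mouse (horizontal axis). In all 3 JQ1-treated mice Defb19 stands within 0.09 of the Sertoli cell mean and both Defb36 probes stand above it.

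The Leydig cell, myoid and macrophage lists had medians above that of all genes, of which 8.43% were called higher and 2.84% lower. All 5 kept Leydig cell genes, markers of the androgen-producing cells between the tubules, were called higher, with a median of 1.14, among them Hsd17b3 at 1.84, Star at 1.16, Insl3 at 1.14 and Cyp17a1 at 1.09. Without background correction Hsd17b3 was at 0.98 and Star at 0.49, and under scaling to equal medians Insl3 was at 0.85 and Cyp17a1 at 0.77, all short of 2-fold. Of the peritubular myoid genes, 1 of 4 was called, which was Acta2 at 1.16 (0.81 under scaling to equal medians, short of 2-fold). The list had a median of 0.52. Actg2 of the same list fell by 0.43 (adjusted p = 0.0088 from limma), short of 2-fold. Of the macrophage genes, 1 of 5 was called, which was Lyz2 at 1.40 (0.76 without control mouse 1, short of 2-fold). Aif1, the brightest of this list, had its lowest change, -0.13 (adjusted p = 0.394 from limma). The macrophage list had a median of 0.70. Kit was the gene called of 7 in the spermatogonial list, at 1.02 (0.84 without background correction, short of 2-fold). The spermatogonial median was 0.36. Of the 2 kept neutrophil genes, Mpo was lower at -1.11 (-0.60 without background correction, short of 2-fold) and Elane lay at -0.11. Of the germ cells that fill most of the tubule, 4 of 8 spermatocyte genes and 2 of 10 spermatid genes were lower by the adjusted p alone, beside 21.6% of all genes, and none was called, with medians of -0.27 and -0.12. The spermatocyte genes lower by the adjusted p were Tdrd6 at -0.82, Spag6 at -0.56, Adam3 at -0.49 and Hspa2 at -0.32. In spermatids they were Acr at -0.73 and Zpbp at -0.61. The bright genes Ldhc in spermatocytes and Prm1 and Smcp in spermatids lay at -0.10, -0.04 and -0.18. Under cyclic loess normalization Ldhc, Prm1 and Smcp were at 0.23, 0.27 and 0.084. With scaling to equal medians and no quantile step they were at -0.32, -0.27 and -0.44, so their change depended on the scaling. By RT-PCR the study reports Prm1 as lower after JQ1 over the same ages, short of significance. Ldhc read 14.98 in all 3 JQ1-treated mice, with an SD of 0 after the quantile step. The log2 of the summed spermatid signal ranged between 16.54 and 16.65 in JQ1-treated mice and between 16.68 and 16.73 in control mice. Defb36 and Defb19 lay on the same side as the Sertoli and Leydig cell lists, and the part of cell makeup in their change was not tested.

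The epididymis, where many beta-defensins are made, lies against the testis. Of its markers, Lcn5, Lcn6, Lcn8, Lcn9, Rnase9, Rnase10, Adam7 and Spag11a were detected on none of the arrays in either group. Cst11, the epididymal gene that was kept, stood at a log2 fold change of -0.12 (adjusted p = 0.637 from limma).

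**Figure D4:**
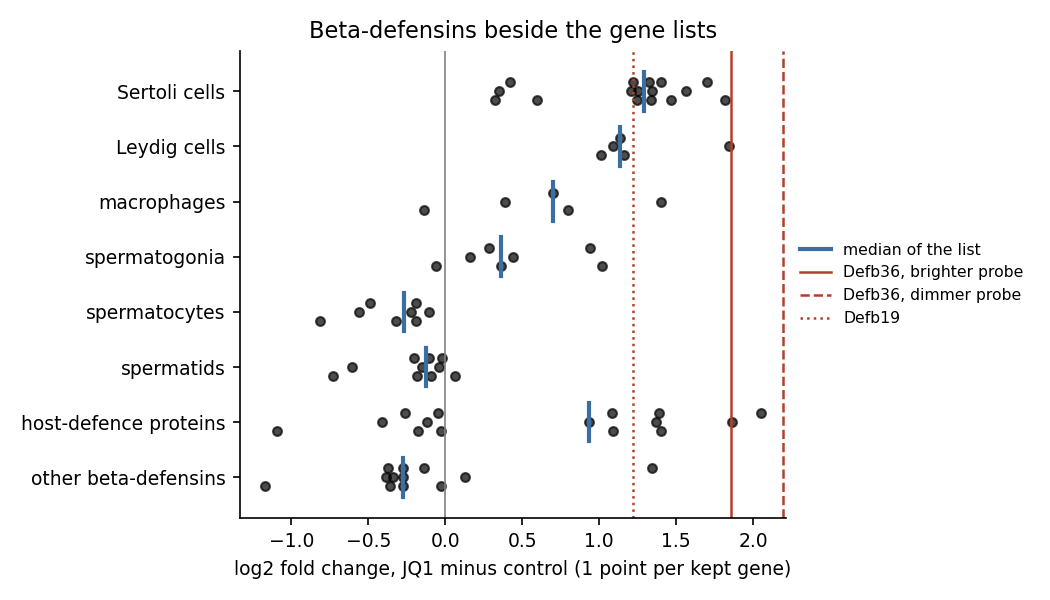
Log2 fold change, JQ1 minus control (horizontal axis), of each kept gene of 8 lists (rows), with the list median in blue and the change of each Defb36 and Defb19 probe as vertical lines. Both Defb36 lines, of a gene chosen for its rise, lie beyond every Sertoli cell gene, the brighter at 1.86 close to Drd4 at 1.82. Defb19 lies within the Sertoli cell genes, while most other beta-defensins lie just below 0.

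Genes of host defence were followed to see what else of this kind moved. Of 15 kept host-defence genes, 6 were called higher and 1 lower, beside 8.43% and 2.84% of all genes. The list median of 0.93 became 0.33 with Wfdc2, detected in none of the control mice, at its bound. Lcn2, which withholds iron from bacteria, was 4.14-fold higher (adjusted p = 9.72e-08 from limma), and Wfdc10, a member of the WAP family of secreted protease inhibitors, 3.64-fold (adjusted p = 8.60e-08 from limma), about as much as the brighter Defb36 probe. The lysozymes Lyz2 and Lyz1, near-identical genes whose probes may not tell them apart, cut bacterial cell walls and rose by 1.40 and 1.39 on the log2 scale, but without control mouse 1 these values were 0.76 and 0.68, short of 2-fold. The change of Defb36 without that mouse was 1.77, and that of Defb19 was 1.24.

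The list of receptors through which beta-defensins act on cells, which also holds Ccl20, a ligand of Ccr6, was mostly below detection. Of its 11 genes, 3 were kept. Ccr6, the chemokine receptor of several beta-defensins, fell by 0.60 (adjusted p = 0.00853 from limma), and Tlr2, a sensor of bacterial lipoproteins, rose by 0.59 (adjusted p = 0.0273 from limma), both short of 2-fold. Of 10 kept genes of the innate signalling that switches on inducible defensins, 2 were called higher, beside 8.43% of all genes. Traf6, a ubiquitin ligase below the interleukin-1 receptor and several Toll-like receptors, rose by 1.39 (adjusted p = 6.62e-05 from limma), and Nfkbia, the inhibitor of NF-kB, by 1.04 (adjusted p = 0.000134 from limma). Without control mouse 1 these were 0.97 and 0.79, and without background correction 0.68 and 0.72, all short of 2-fold. The median of the list was 0.64, or 0.50 with Relb at its bound.

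The genes with the profile nearest to each of the pair were found by the Euclidean distance between log2 profiles over the 5 mice, each gene centred on its own mean. The nearest to Defb36 were Slc35c1, a GDP-fucose transporter of the Golgi, at 0.066, Prelp, a proteoglycan of the extracellular matrix, at 0.075, Fam102a at 0.11, Tmem114 at 0.12 and Psap, the precursor of the saposins, at 0.13. They were between 3.45- and 3.69-fold higher with JQ1. The nearest to Defb19 were Ywhah, a 14-3-3 protein, at 0.054, Vkorc1, the target of warfarin, at 0.064, Pttg1ip at 0.071, Jade1 at 0.086 and Wfdc6b, a WAP family protein, at 0.092, with folds between 2.23 and 2.30. Being near in this measure means mainly a change of the same size in the same mice.

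The profiles of Defb36 and Defb19 were not especially near each other. The distance was 0.71, and Defb19 ranked 456th among the 11755 genes by nearness to Defb36. Defb45, between them on the chromosome, lay 0.68 from Defb36 and 0.34 from Defb19. Its profile was thus nearer to that of Defb19, although it ranked only 529th among the genes near Defb19.

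The size of the change depended on how the arrays were scaled. Scaling each array to the same median, with no quantile step, gave log2 fold changes of 1.54 and 1.99 for the brighter and dimmer Defb36 probes and 0.90 for Defb19, while the median of all genes moved to -0.10. When every mouse was shifted so that the Sertoli cell list had the same mean in each, which takes the median of all genes to -1.16, the probes of Defb36 stood at 0.70 (SE 0.16) and 1.03 (SE 0.17) and Defb19 at 0.06 (SE 0.16). On that scale 11 of the 12 kept relatives were called lower, beside 7076 of all 11755 genes. Defb45 stood at 0.18 on the log2 scale (adjusted p = 0.321 from limma). Defb36 remained above its control level under each scaling, and Defb19 lay within its standard error of 0 under the last.

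**Figure D5:**
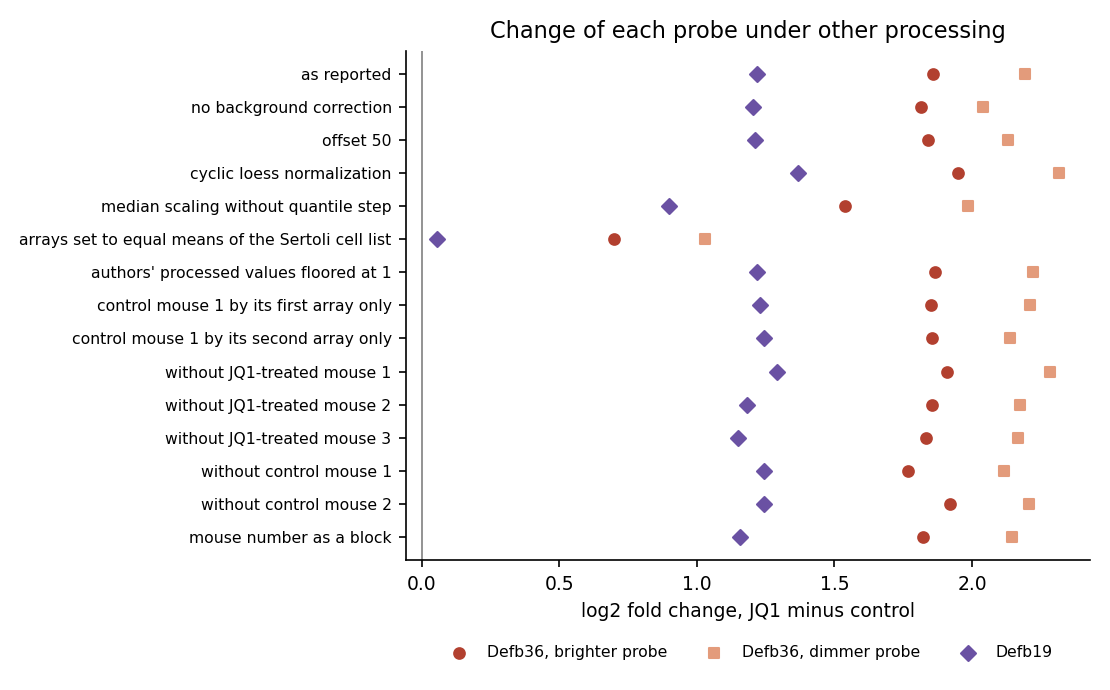
Log2 fold change, JQ1 minus control (horizontal axis), of the 3 beta-defensin probes under the reported processing and 14 others (rows). The values are lowest where the Sertoli cell list is given the same mean in every mouse, where Defb36 lies at 0.70 and 1.03 and Defb19 at 0.06.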

How the data were processed

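Testis RNA of 3 JQ1-treated and 2 control mice was measured on 6 arrays. The authors deposited a raw intensity and a detection p-value per probe, and processed intensities that they had background-subtracted and normalized. The tool they used for this step was not given in the sources used here. Samples were grouped by the treatment and mouse number in the labels.

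Raw intensities were background-corrected in R 4.3.3 with limma 3.58.1 by normexp (offset 16), with the negative controls inferred through the detection p-values. Quantile normalization and log2 followed. Probes detected in at least 2 of 5 mice were kept. The limma fit used eBayes with a trend in intensity, and the Benjamini-Hochberg adjustment covered all kept probes. Scripts were tested on simulated data. Of the probes, 34885 had 1 gene symbol, 18 several and 10378 none. Sequences came from RefSeq, GRCm38.p6, and the gene order was read from the same assembly. The array files name no genome build.

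The members and lists were chosen with earlier results of these data known, from general knowledge of cell types and host defence. Named besides the pair were every kept Defb gene, the 5 nearest profiles to each, measured neighbours, up to 4 called members of a list (or its 2 brightest), and Sertoli markers. The germ cell genes lower by the adjusted p were also named. The alternatives were other background corrections, offsets, normalizations and filters, the authors' processed values floored at 1, single technical arrays, each mouse left out, no intensity trend and the mouse number as a block. Array number limits the precision.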

Additional observations from a re-analysis of the deposited data

How the results depend on the processing

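Both Defb36 probes stayed higher with JQ1 under all alternatives run, and so did Defb19 except with equal Sertoli cell means, where it lay within its standard error of 0. Leaving out 1 mouse gave 1.77 to 1.92 for the brighter and 2.12 to 2.28 for the dimmer Defb36 probe, 1.15 to 1.29 for Defb19, 925 to 1309 genes called higher at any kept probe (1061 with all mice) and 361 to 590 called lower (441), and 23 to 32 list genes called higher (28) and 2 to 3 lower (3). No background correction gave 2.04 at the dimmer Defb36 probe, 441 genes higher and 83 lower, 0 list genes lower and 0 other beta-defensins lower. An offset of 50 gave 659 higher and 192 lower, again 0 and 0. Cyclic loess gave 2.31 at the dimmer probe and 1.37 for Defb19, and turned Ldhc (0.23), Prm1 (0.27) and Smcp (0.084) to above 0. Median scaling gave 1.54, 1.99 and 0.90 for the brighter and dimmer Defb36 probes and Defb19, and -0.011 for Defb14. Equal Sertoli cell means gave 0.70, 1.03 and 0.057, with 15 genes higher and 7714 lower, 0 and 47 list genes, and 0 and 11 other beta-defensins. By construction this scaling lowers all values in JQ1-treated mice, and it turned Defb14 (-1.03), Defa3 (-0.36), Sohlh1 (-0.72), Tlr2 (-0.57), Star (-0.0016), Insl3 (-0.024), Cyp17a1 (-0.071), Kit (-0.14), Acta2 (-0.0005), Nfkbia (-0.12) and Wfdc6b (-0.0010) to below 0. The authors' processed values gave 1671 higher and 775 lower. For the other moves the cause was not tested. Of genes called at any kept probe, 70.6% were higher, against 84.2%, 77.4%, 79.9%, 59.9% and 0.194% under the first 5 of these alternatives in order.

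The mouse numbers are shared between groups, but nothing ties the same-numbered mice, and their deviations correlated at r = 0.15 and 0.022 over probes in the 2 pairs. With the mouse number as a block, the brighter and dimmer Defb36 probes and Defb19 had log2 fold changes of 1.82, 2.14 and 1.16, and 922 genes were called higher. Over all alternatives the values of single named genes kept direction and call in 794 cases, lost the call in 54, gained it in 23 and changed sign in 22. Tdrd6, Spag6, Adam3, Acr and Zpbp were not among the genes followed. Beside those given above, sign changes were seen for dim or little-changed genes: leaving out 1 mouse gave -0.050 to 0.29 for Defb14, -0.0975 to 0.018 for Prm1, -0.297 to 0.016 for Defb28, -0.57 to 0.0043 for Defb41 and -0.10 to 0.056 for Defb48, which was at 0.032 with the first array of control mouse 1 alone. Without control mouse 1 or JQ1-treated mouse 3, Cyp17a1 and Kit fell short of 2-fold. Dim probes such as Defb21 and Defb28 rest partly on background, which sets how small a change can be seen.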

Other observations

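WAP-domain proteins, secreted inhibitors of proteases of which several also act on bacteria, were looked at after the values of Wfdc10 and Wfdc6b had been seen, and are given without a test. Of 19 genes with a probe, 10 were kept, with a median log2 fold change of 1.09. In 6 of them every JQ1-treated mouse lay above both control mice, in 1 every treated mouse lay below, and in 3 the groups overlapped. Among the 6 was Wfdc2, detected in none of the control mice, with a bound of 1.26-fold. The median fell between Eppin at 1.09 and Slpi at 1.08, and the control values of Slpi were far apart. The 1 that lay below was Spint5, a Kunitz-type inhibitor gene that was counted with this set. Of all genes, 33.9% had every treated mouse above and 32% every one below.

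Wfdc10 read 11.08, 11.64 and 11.46 in JQ1-treated mice, against 9.58 and 9.48 in control mice. Its change of 1.86 equalled that of the brighter Defb36 probe. Wfdc6a read 9.84, 10.45 and 10.34 in JQ1-treated mice, against 8.88 and 8.87 in control mice. Wfdc1 read 9.78, 9.87 and 10.17 in JQ1-treated mice, against 8.44 and 8.51 in control mice. In both the groups were apart by more than the range of the treated mice. Eppin, a sperm-coating protein of the testis and epididymis, read 10.68, 11.01 and 10.66 in JQ1-treated mice, against 9.63 and 9.75 in control mice. Wfdc3, in the same family, did not share this, with 10.43, 10.36 and 10.20 in JQ1-treated mice and 10.18 and 10.43 in control mice. Slpi, a secretory inhibitor of neutrophil elastase, could not be read, since the control mice lay at 5.19 and 7.86.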
